A study of Rattus norvegicus with 4 samples.

Results

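The proteasome subunits and the enzymes that activate and conjugate ubiquitin were followed in the hippocampus of aged, chronically stressed rats. Members were taken by gene symbol: a probe set (a group of short oligonucleotides on the array that reads 1 transcript) was included when its annotation gave exactly 1 symbol, beginning with Psma, Psmb, Psmc, Psmd, Psme or Ube2, or with Uba and a digit. This gave 117 of 31042 probe sets, for 75 genes, of which 53 belonged to the proteasome, 62 to ubiquitin enzymes, and 2 to Psmc3ip and Psme3ip1, which share the letters but encode neither. Total hippocampal RNA came from male Wistar rats of 16 months: the stressed rats had undergone 4 weeks of chronic unpredictable mild stress (a battery of changing mild stressors) from an age of 15 months, and the control rats were age-matched and were housed under standard conditions. Each group had 2 arrays, each hybridized with RNA pooled from 3 rats. No source used here says that the rats of one pool differed from those of the other, so the p-values measure the spread between these pools, which may be in part technical. A probe set was tested when its signal (fluorescence intensity in arbitrary units) was at least 100 on at least 2 arrays, which kept 93 of the 117 probe sets and 69 of the 75 genes, against 14791 tested probe sets in all. Fold changes are log2 differences, stressed minus control, given with their standard error, and "rose" or "fell" marks an adjusted p under 0.05 by limma (a linear model fitted to all tested probe sets, with Benjamini-Hochberg adjustment over all of them).

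Ubiquitin is a small protein that marks other proteins. An activating enzyme (E1) charges it, a conjugating enzyme (E2) receives it, and a ligase (E3) directs its transfer to a substrate. Chains of ubiquitin deliver substrates to the 26S proteasome. Its 20S core is a barrel of alpha rings, which gate the entry, and beta rings, which hold the proteolytic sites, and its 19S cap binds, deubiquitinates, unfolds and threads the substrate by a ring of ATPases and a set of non-ATPase subunits. In neurons this pathway turns over synaptic and misfolded proteins.

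In stressed rats, the proteasome probe sets were shifted downwards by a small amount. Of 46 tested proteasome probe sets, 14 fell, 2 rose and 30 did not pass the test. The fallen share was 30.4%, beside 11.8% among all tested probe sets, and the risen share was 4.35%, beside 12% among all. The median log2 fold change was -0.13, beside 0.02 over all tested probe sets, and the fold change was below 0 for 35 of 46 (76.1%), beside 46.2% of all tested probe sets. Both stressed arrays lay below both control arrays for 28 proteasome probe sets (60.9%, beside 29.5% of all), and above both for 7 (beside 34.9% of all). No member changed by 2-fold, which the study required together with an unadjusted t-test p under 0.05. With limma's unadjusted p in place of the t-test, 1.60% of all tested probe sets met both thresholds. Among the ubiquitin enzymes 6 of 45 fell (13.3%), 3 rose (6.67%), 36 did not pass, and the median was -0.06. Their fallen share lay near that of all probe sets, whereas 30 of the 45 (66.7%) were below 0 and 21 (46.7%) had both stressed arrays below both control arrays.

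The number of proteasome calls depended on each of the arrays, while the median kept its sign. Relative to the mean over the 4 arrays, the median proteasome probe set stood at -0.05 and -0.07 on the stressed arrays, against 0.05 and 0.06 on the control arrays. Leaving out 1 array at a time left 6 fallen probe sets without stressed array 1, 5 without stressed array 2, 5 without control array 1 and 3 without control array 2, in place of 14. With the replicate number as a block 5 remained, with no filter on dim probe sets 5, without the intensity trend in the spread 1, and with the methods' t-test after adjustment 0. Over all tested probe sets, 1744 fell in the main fit, 1391 with the block, 1147 without the trend and 14 with the t-test. With no filter, 1341 of 31042 fell. The fallen proteasome share was near that of all probe sets with the block and below it without the trend. It stayed above that of all with no filter. The median stayed between -0.14 and -0.11 whichever array was left out. Its sign could not change, since 28 of the 46 probe sets had both stressed arrays below both control arrays. Among the brighter probe sets alone, with a mean signal of at least 1000, 11 of 26 proteasome probe sets fell (42.3%) and none rose by limma (1 was higher at an unadjusted p under 0.05), beside 15.6% lower and 17.9% higher among 3098 such probe sets.

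Other measures differed between the same groups. Markers of cell types and tissues were read by the brightest probe set of each gene. Choroid plexus markers were higher in the stressed pools: 7 of 9 tested markers rose, none was at 0, and their summed signal was 19020 to 20255 in stressed pools, against 14544 to 16347 in control pools. Of the meningeal and fibroblast markers, 5 of 7 fell and 1 (Igf2) rose, with a sum of 2422 to 2455 in stressed pools, against 2894 to 2910 in control pools. Of 6 endothelial markers 3 rose, and their sum was 3801 to 3834 in stressed pools, against 3232 to 3309 in control pools. Neuronal markers (3 of 10 rose, 2 fell) summed to 35444 to 35882 in stressed pools, against 32967 to 33247 in control pools, and astrocyte markers (1 of 8 rose) to 53450 to 54965 in stressed pools, against 47934 to 49674 in control pools. Dimmer probe sets of some markers went the other way: of the astrocyte genes, Aqp4 fell with 1 of them (-1.30, adjusted p = 9.87e-05 by limma), as did Slc1a3 (-0.43, adjusted p = 0.0125). Among the neuronal genes, the dimmer probe set of Stmn2 fell (-0.28, adjusted p = 0.00358) and that of Camk2a rose (0.55, adjusted p = 0.0229). Those of Rbfox3, Nefl and Slc17a7 did not pass. Of 7 microglial markers 2 fell and 1 rose (sum 3451 to 3485 in stressed pools, against 3675 to 3734 in control pools), of 7 oligodendrocyte markers 1 fell and 1 rose (35550 to 36345 in stressed pools, against 36368 to 38615 in control pools), and of 4 thalamic markers 1 fell. Among their dimmer probe sets, that of Cnp rose (0.38, adjusted p = 0.0199 by limma), though its brightest fell. Those of Ermn (0.23, adjusted p = 0.0302) and Lef1 (1.08, adjusted p = 0.0159) also rose. Mbp (-0.51, adjusted p = 0.00206) and Mobp (-0.18, adjusted p = 0.0388) fell with 1 each, as did P2ry12 (-1.27, adjusted p = 0.00113). Others of Mbp, Mobp and Cldn11 did not pass. Of 3 blood markers, S100a8 and S100a9 rose and Hbb did not pass, with a sum of 3069 to 3082 in stressed pools, against 3060 to 3073 in control pools. Markers of hippocampal pyramidal and granule cells were present in both groups, and of 8 tested 1 rose and none fell with the brightest probe set. Dimmer probe sets of Zbtb20, in this list, went both ways. They fell (-0.99, adjusted p = 0.00255, and -0.79, adjusted p = 0.00928 by limma), rose (0.32, adjusted p = 0.0122) or did not pass (0.13, adjusted p = 0.162). The ratio of the 3′ to the 5′ control probe set of 1 transcript, which climbs as RNA is degraded or incompletely copied, was 4.48 and 5.29 for hexokinase on the stressed arrays, against 2.55 and 2.50 on the control arrays. For beta-actin it was 7.82 and 7.66 on stressed arrays, against 6.67 and 6.20 on control arrays, and for GAPDH 2.12 and 2.16 on stressed arrays, against 2.14 and 2.25 on control arrays. The part of these differences in the proteasome and enzyme results was not tested. In pooled bulk tissue, fewer cells of a type and less RNA per cell cannot be told apart.

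**Figure D1:**
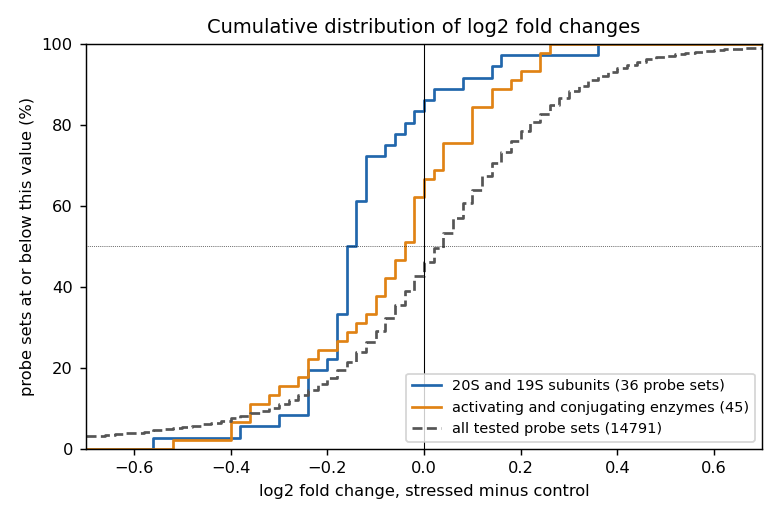
Cumulative distribution of the log2 fold change (x axis, stressed minus control) as the percentage of probe sets at or below each value (y axis), for the 36 probe sets of 20S and 19S subunits, the 45 of activating and conjugating enzymes, and all 14791 tested probe sets. The curve of the 20S and 19S subunits lies to the left around its median of -0.16, while the enzyme curve has its median at -0.06 and crosses that of the subunits, lying left of it from -0.36 to -0.20 and right of it at -0.16.

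The 20S core was uniform in direction. All 13 tested probe sets of the alpha and beta rings had a fold change below 0 (beside 46.2% of all tested probe sets). All 13 also had both stressed arrays below both control arrays (beside 29.5% of all). Their log2 fold changes ran from -0.31 to -0.08 with a median of -0.16, and 5 of the 13 fell (38.5%, beside 11.8% of all). Among the 7 alpha subunits, which form the outer rings, the signal of Psma3 was 790.3 and 768 on the stressed arrays, against 1038 and 902 on the control arrays. Psma3 fell by 0.31 ± 0.07 on the log2 scale, or by 19.4% (adjusted p = 0.0206). Psma7 gave 1893 and 1879 in stressed pools, against 2073 and 2193 in control pools (log2 fold change -0.18 ± 0.05, adjusted p = 0.0333). For Psma2 the signals were 1597 and 1585 in stressed pools, against 1792 and 1762 in control pools (log2 fold change -0.16 ± 0.04, adjusted p = 0.0376). In all 3 genes the 2 stressed values lay close together and below both control values. Psma1, Psma4, Psma5 and Psma6 did not pass, with log2 fold changes of -0.16, -0.19, -0.15 and -0.08.

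The beta rings hold the active sites, carried by Psmb5 (chymotrypsin-like), Psmb6 (caspase-like) and Psmb7 (trypsin-like). Psmb7 gave 2758 and 2668 on the stressed arrays, against 3136 and 3316 on the control arrays. It fell by 0.25 ± 0.05 on the log2 scale, or 15.9% (adjusted p = 0.00934), with a gap between the groups wider than the spread within either. Psmb5 read 3014 and 3019 in stressed pools, against 3255 and 3469 in control pools, without overlap, but did not pass (log2 fold change -0.16 ± 0.05, adjusted p = 0.0501). Psmb6 was read only by probe sets annotated to several genes and was not analysed here. Psmb4, a structural beta subunit, gave 3549.7 and 3444 in stressed pools, against 3959 and 4140.1 in control pools. It fell by 0.21 ± 0.05 log2 units (adjusted p = 0.0147). Psmb1, Psmb2 and Psmb3 did not pass, with log2 fold changes of -0.13, -0.08 and -0.13, again with the stressed values below the control values.

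**Figure D2:**
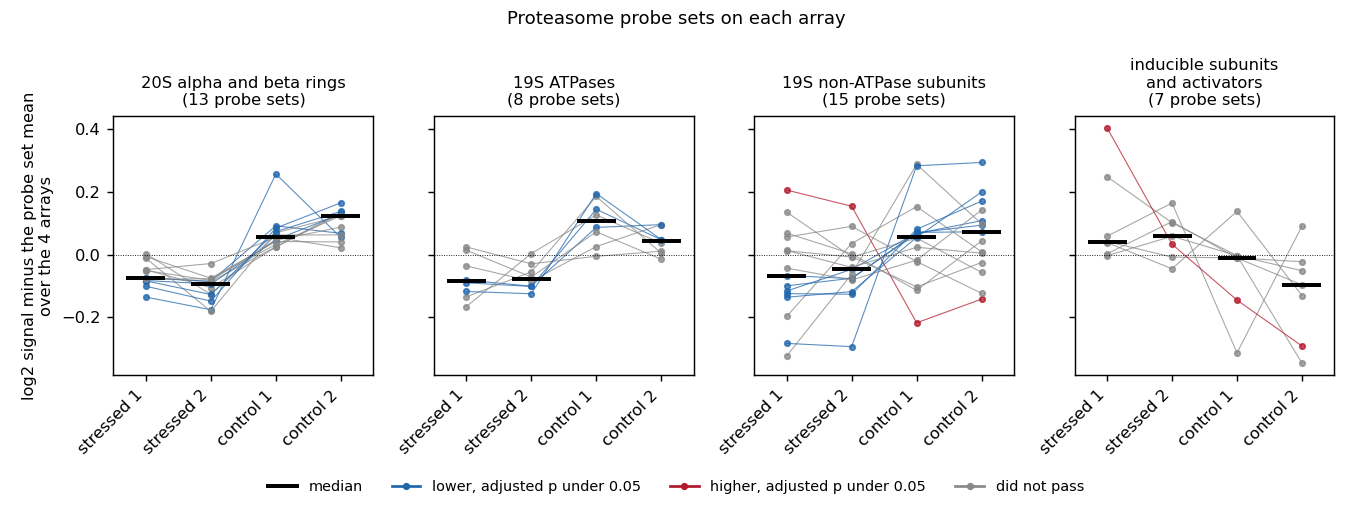
Log2 signal of each tested probe set on each array (x axis), relative to its own mean over the 4 arrays (y axis), for the 20S rings (13 probe sets), the 19S ATPases (8), the 19S non-ATPase subunits (15) and the inducible subunits with the activators (7); each line joins the arrays for 1 probe set and black bars are medians. In the 20S rings every probe set lies lower on both stressed arrays than on both control arrays, while the non-ATPase subunits and the last panel run in both directions.

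The 6 ATPases Psmc1 to Psmc6 form the ring that unfolds the substrate and opens the core. All 8 tested probe sets were below 0 (median log2 fold change -0.17), beside 46.2% of all tested probe sets. Both stressed arrays lay below both control arrays for 6 of the 8 (beside 29.5% of all), and 3 of the 8 fell (beside 11.8% of all). For Psmc1 the signals were 1549 and 1536 in stressed pools, against 1822 and 1704 in control pools (log2 fold change -0.19 ± 0.05, adjusted p = 0.0309). Psmc3 showed 1412 and 1393 on stressed arrays, against 1586 and 1596 on control arrays (log2 fold change -0.18 ± 0.05, adjusted p = 0.0247). Both genes had nearly equal stressed replicates, lower than either control replicate. Psmc6 was read by 3 probe sets. The one that fell gave 1041 and 1036 in stressed pools, against 1293 and 1168 in control pools (log2 fold change -0.24 ± 0.06, adjusted p = 0.0251). The other two read -0.16 (adjusted p = 0.119) and -0.19 (adjusted p = 0.131) on the log2 scale, so that all 3 pointed the same way. Psmc2 (-0.12, adjusted p = 0.0988), Psmc4 (-0.06, adjusted p = 0.496) and Psmc5 (-0.01, adjusted p = 0.943) did not pass.

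The non-ATPase subunits of the 19S cap went in both directions. Of 15 tested probe sets of 11 genes, 6 fell (beside 11.8% of all tested probe sets) and 1 rose (beside 12% of all). The other 8 did not pass, and the median over the 15 was -0.14. Psmd7, which pairs with the deubiquitinase Psmd14 in the lid, was measured by 2 probe sets. The dimmer one (1379322_at) gave 626 and 621 on the stressed arrays, against 926 and 933 on the control arrays. It fell by 0.58 ± 0.05 on the log2 scale, or by 33.0% (adjusted p = 0.00042), the largest absolute change among the 93 tested members, with replicates almost equal within each group. The brighter Psmd7 probe set (1389245_at) gave 1739 and 1675 in stressed pools, against 1751 and 1728 in control pools, a log2 fold change of -0.03 ± 0.05 (adjusted p = 0.7), and its groups overlapped.

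Psmd14, which removes ubiquitin chains as the substrate enters, was read by 3 probe sets with the same direction. The brightest gave 1947 and 2043 in stressed pools, against 2215 and 2252 in control pools (log2 fold change -0.16 ± 0.05, adjusted p = 0.0401). A second read 540.2 and 547 in stressed pools, against 617 and 682 in control pools (-0.25 ± 0.07, adjusted p = 0.0357). The dimmest, at 131 and 156 in stressed pools, against 199.5 and 175 in control pools, did not pass (-0.39 ± 0.14, adjusted p = 0.0854). None of the 3 overlapped between the groups.

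Psmd6, another lid subunit, gave 1796 and 1794 on the stressed arrays, against 2071 and 2204 on the control arrays, and fell by 0.25 ± 0.05 log2 units (adjusted p = 0.00983). Both Psmd11 probe sets fell. Psmd11, which helps to hold the lid to the core, gave 2260.3 and 2298 in stressed pools, against 2537 and 2610.4 in control pools with the brighter probe set (-0.18 ± 0.04, adjusted p = 0.0253). The dimmer Psmd11 probe set gave 1834 and 1821 in stressed pools, against 2017 and 2020.3 in control pools (-0.14 ± 0.04, adjusted p = 0.0484). In these lid subunits each stressed value was lower than each control value.

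Psmd1 went the other way. This large scaffold subunit of the base gave 877 and 846 on the stressed arrays, against 654 and 689 on the control arrays. It rose by 0.36 ± 0.06 on the log2 scale, or by 28.3% (adjusted p = 0.00491), with both stressed arrays above both control arrays. Psmd2, the other large scaffold of the base, gave 1991 and 2038 in stressed pools, against 1886 and 1758 in control pools, also without overlap, and did not pass (0.15 ± 0.05, adjusted p = 0.0758). The ubiquitin receptor Psmd4 gave 1169.8 and 1139.7 in stressed pools, against 1190.5 and 1330.1 in control pools (-0.12 ± 0.06, adjusted p = 0.193). Psmd3, Psmd8, Psmd12 and Psmd13 had log2 fold changes of 0.07, 0.13, 0.00 and -0.16 and did not pass. The 3 assembly chaperones with Psmd symbols, Psmd5, Psmd9 and Psmd10, which help to build the ATPase ring and are not part of the finished particle, did not pass either (-0.14, -0.04 and -0.10).

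**Figure D3:**
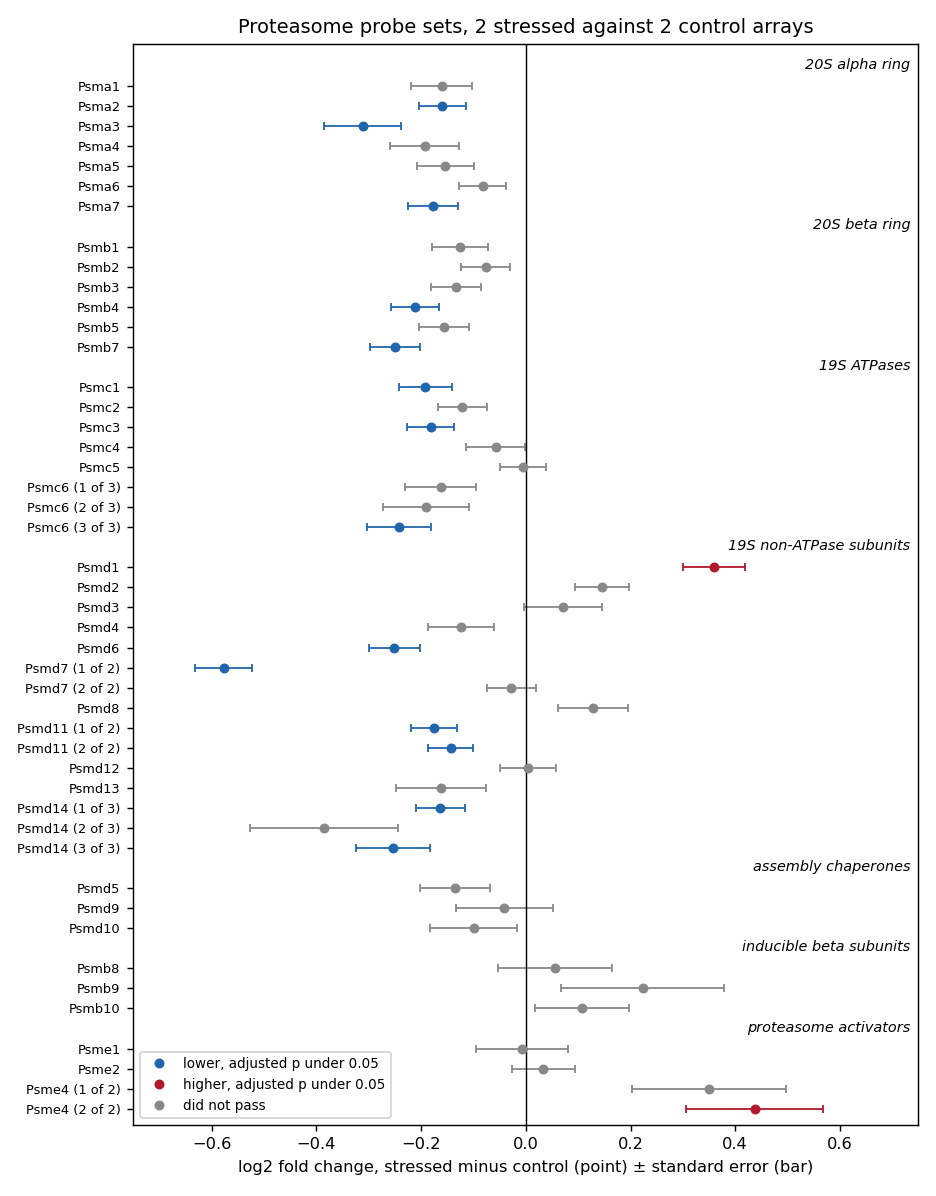
Log2 fold change (x axis, stressed minus control) with its standard error for each tested proteasome probe set (rows, grouped by role; numbers in brackets count the probe sets of 1 gene). The rows of the 20S rings and the ATPases all lie left of 0, Psmd7 holds the lowest value at -0.58 beside its second probe set at -0.03, and Psmd1 and Psme4 hold the risen values at 0.36 and 0.44.

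Of the 7 tested probe sets of subunits that exchange into the core and of caps that replace the 19S, 1 was below 0, beside 46.2% of all tested probe sets, and 1 rose, beside 12% of all. The risen share is near that of all probe sets, so that these values are a description of single genes. Psmb8, Psmb9 and Psmb10 are the interferon-inducible catalytic subunits of the immunoproteasome and were dim, with mean signals of 170 to 303. Psmb8 gave 187 and 195 in stressed pools, against 187 and 181 in control pools, Psmb9 176 and 189 in stressed pools, against 136 and 179.5 in control pools, and Psmb10 303 and 325 in stressed pools, against 300.1 and 283 in control pools. All 3 were above 0 (log2 fold changes of 0.05, 0.22 and 0.11) and none passed the test, the groups overlapping or touching for Psmb8 and Psmb9. Psme1 and Psme2, which form the PA28 activator ring, read -0.01 ± 0.09 (adjusted p = 0.961) and 0.03 ± 0.06 (adjusted p = 0.722).

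Psme4 encodes PA200, a large single-chain activator. Its brightest probe set gave 412 and 318 on the stressed arrays, against 281 and 254 on the control arrays. The 2 stressed values were far apart, and both exceeded the control values. Psme4 rose by 0.44 ± 0.13 on the log2 scale, or by 35.4% (adjusted p = 0.0464), a call that was lost without stressed array 1, control array 1 or control array 2. A second Psme4 probe set gave 202 and 182 in stressed pools, against 169.7 and 134 in control pools (0.35 ± 0.15, adjusted p = 0.123). The third, at 89.6 and 55.9 in stressed pools, against 64.1 and 55.8 in control pools, was too dim to be tested. Psme3 was read only by probe sets annotated to several genes and was not analysed here.

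The promoters of the proteasome genes that fell with the smallest adjusted p (Psmd7, Psmb7 and Psmb4, among genes with an entry in the promoter table) and of those that rose (Psmd1 and Psme4) are printed because called proteasome genes went in both directions. They are RefSeq sequences of the GRCr8 assembly, 300 bases each, 250 before to 50 after the start of the gene, 5′ to 3′ on the gene's strand. Capitals mark CCAAT, the CCAAT box bound by NF-Y, and TGACNNNGC, the core of the antioxidant response element that NFE2L1 and NFE2L2 bind, on either strand.

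Psmd7, chr19:52411267-52411566, minus strand: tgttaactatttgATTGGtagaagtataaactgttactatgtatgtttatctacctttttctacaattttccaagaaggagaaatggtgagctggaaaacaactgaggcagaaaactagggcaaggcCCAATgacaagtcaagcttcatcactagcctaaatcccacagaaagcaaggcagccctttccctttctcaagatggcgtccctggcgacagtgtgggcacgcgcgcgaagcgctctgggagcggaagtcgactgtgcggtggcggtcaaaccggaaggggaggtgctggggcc
Psmb7, chr3:42827421-42827720, minus strand: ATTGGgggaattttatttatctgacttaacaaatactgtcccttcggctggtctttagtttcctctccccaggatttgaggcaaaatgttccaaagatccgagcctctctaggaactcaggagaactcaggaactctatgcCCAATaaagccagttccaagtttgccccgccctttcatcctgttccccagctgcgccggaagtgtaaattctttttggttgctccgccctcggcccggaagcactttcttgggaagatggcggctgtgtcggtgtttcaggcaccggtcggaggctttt
Psmb4, chr2:185134512-185134811, minus strand: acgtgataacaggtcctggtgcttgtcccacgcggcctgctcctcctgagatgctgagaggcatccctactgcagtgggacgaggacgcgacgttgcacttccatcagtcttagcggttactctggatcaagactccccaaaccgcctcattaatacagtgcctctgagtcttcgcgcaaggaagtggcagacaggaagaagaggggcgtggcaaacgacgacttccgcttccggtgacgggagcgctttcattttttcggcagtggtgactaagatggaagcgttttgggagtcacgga
Psmd1, chr9:94157721-94158020, plus strand: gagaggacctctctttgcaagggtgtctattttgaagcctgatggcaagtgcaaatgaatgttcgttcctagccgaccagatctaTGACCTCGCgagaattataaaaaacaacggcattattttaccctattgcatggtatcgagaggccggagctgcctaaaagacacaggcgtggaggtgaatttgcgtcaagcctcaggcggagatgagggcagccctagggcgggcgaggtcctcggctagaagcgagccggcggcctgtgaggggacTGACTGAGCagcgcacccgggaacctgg
Psme4, chr14:108706393-108706692, plus strand: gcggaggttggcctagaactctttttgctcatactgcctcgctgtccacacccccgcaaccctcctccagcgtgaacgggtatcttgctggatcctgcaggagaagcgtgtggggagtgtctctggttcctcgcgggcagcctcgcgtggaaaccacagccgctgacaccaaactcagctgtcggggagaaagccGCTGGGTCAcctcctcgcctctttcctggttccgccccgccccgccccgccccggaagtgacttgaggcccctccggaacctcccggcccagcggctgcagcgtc

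Psmd7 held 2 CCAAT boxes, 237 and 123 bases before the start (positions -237 and -123), and Psmb7 held 2, at -250 and -109. Psmb4 held neither motif. Psmd1 held 2 antioxidant response element cores, at -165 and at 22 bases after the start, and Psme4 held 1, at -55. Of the 75 genes, 70 matched a promoter of this length. CCAAT was found in 18 of 35 proteasome promoters (51.4%) and 11 of 33 enzyme promoters (33.3%), beside 37.5% of all 33469 promoters of the table. TGACNNNGC was found in 7 of 35 proteasome promoters and 9 of 33 enzyme promoters (27.3%), beside 12.1% of all. The GC box GGGCGG, bound by Sp1, was found in 24 (68.6%) and 20 (60.6%), beside 33.1% of all. These matches describe the letters in a window and are not measured binding.

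Among the activating enzymes, Uba1, the main E1 for ubiquitin, was the only tested member past the threshold. Its signal was 2308 and 2178 on the stressed arrays, against 1895 and 1920.1 on the control arrays, with both stressed values higher. Uba1 rose by 0.23 ± 0.05 on the log2 scale, or by 17.5% (adjusted p = 0.0124). Uba6, the second E1 for ubiquitin, was read by 4 dim probe sets whose log2 fold changes ran from -0.25 to 0.12, none past the test. The E1 subunits of other modifiers gave nearly equal values in both groups: Uba2 (SUMO) read 1252 and 1280.0 in stressed pools, against 1291 and 1220.5 in control pools (0.01 ± 0.05), and Uba3 (NEDD8) read 1664 and 1681 in stressed pools, against 1676 and 1679 in control pools (-0.00 ± 0.04). Uba7, the E1 for ISG15, was too dim to be tested, and its brightest probe set gave 76.6 and 66.2 in stressed pools, against 29.3 and 54.8 in control pools.

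Among the conjugating enzymes of ubiquitin (without Ube2z, counted apart below), 6 of 33 tested probe sets fell, 2 rose and 25 did not pass, with a median log2 fold change of -0.09. The fallen share was 18.2%, beside 11.8% of all tested probe sets, and the risen share 6.06%, beside 12% of all. The fold change was below 0 for 26 of the 33 (78.8%, beside 46.2% of all), and both stressed arrays lay below both control arrays for 19 (57.6%, beside 29.5% of all). Ube2b (RAD6B), the E2 that ubiquitinates histone H2B and PCNA, held the lowest value, in 1 of its 2 tested probe sets. The probe set 1386923_at gave 734 and 855 on the stressed arrays, against 1126 and 1164 on the control arrays. Both stressed values were lower, although they were farther apart than the controls. Ube2b fell by 0.53 ± 0.08 on the log2 scale, or by 30.9%, in this probe set (adjusted p = 0.00288), while the brighter 1375642_at gave 1689.6 and 1638 in stressed pools, against 1702 and 1764 in control pools (-0.06 ± 0.05, adjusted p = 0.406). Its paralog Ube2a read -0.03 and -0.19 with 2 probe sets, neither past the test.

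Ube2n, the E2 for chains linked through lysine 63, which signal rather than degrade, gave 1505 and 1665 on the stressed arrays, against 2031 and 2169 on the control arrays. It fell by 0.41 ± 0.06 on the log2 scale, or by 24.6% (adjusted p = 0.00378), without overlap between the groups. A dimmer Ube2n probe set, below the limit for testing, gave 49.8 and 55.0 in stressed pools, against 101 and 86.3 in control pools. Its partner Ube2v2, an E2 variant without a catalytic cysteine, gave 1421 and 1608 in stressed pools, against 1496 and 1467 in control pools, overlapping (0.03 ± 0.06, adjusted p = 0.773).

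Ube2g1, an E2 for the degradative chains linked through lysine 48, fell in both probe sets. The brighter gave 1431 and 1506 in stressed pools, against 1748 and 1769 in control pools (-0.26 ± 0.05, adjusted p = 0.00829). The dimmer gave 389.7 and 376 in stressed pools, against 495 and 470.0 in control pools (-0.33 ± 0.07, adjusted p = 0.0155). Neither overlapped between the groups. Ube2q2, an E2 of the Q family, gave 903 and 929.6 in stressed pools, against 1094 and 1065 in control pools, and fell by 0.24 ± 0.05 log2 units (adjusted p = 0.0152). Its second probe set read -0.18 ± 0.08 (adjusted p = 0.138).

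Ube2d2, which works with many RING ligases, was read by 3 probe sets with different fold changes, whose differences from the brightest did not pass the test (adjusted p = 0.0613 and 0.0617 by limma). The dimmest (1370525_at) gave 364 and 357 in stressed pools, against 452 and 478 in control pools, and fell by 0.37 ± 0.07 log2 units (adjusted p = 0.0116). The brightest gave 1641 and 1727 in stressed pools, against 1798 and 1747 in control pools (-0.07 ± 0.05, adjusted p = 0.31), and the third 1222 and 1424 in stressed pools, against 1231 and 1079 in control pools (0.20 ± 0.09, adjusted p = 0.146). Ube2d2 is close in sequence to Ube2d1 and Ube2d3, and cross-hybridization between them was not tested. Ube2d1 read -0.10 (adjusted p = 0.291) and -0.37 (adjusted p = 0.056), and Ube2d3 and Ube2e1 were not analysed here.

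Both E2 probe sets that rose belonged to genes with a second probe set below 0. Ube2h, the E2 of the CTLH ligase complex, gave 1037 and 1088 on the stressed arrays, against 877 and 899 on the control arrays, and rose by 0.26 ± 0.05 on the log2 scale (adjusted p = 0.0126). Its dim second probe set gave 106 and 108 in stressed pools, against 140.3 and 145 in control pools (-0.42 ± 0.13, adjusted p = 0.0549). Ube2ql1 of the Q family gave 1153 and 1116 on the stressed arrays, against 953 and 989 on the control arrays, and rose by 0.22 ± 0.05 (adjusted p = 0.0193). Its brighter probe set gave 2428 and 2395 in stressed pools, against 2499 and 2582 in control pools (-0.08 ± 0.04, adjusted p = 0.255). All 4 probe sets were without overlap between the groups.

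Ube2k, an E2 that builds lysine 48 chains, gave -0.03, -0.06 and -0.25 on the log2 scale with 3 probe sets, and Ube2l3, the E2 of HECT and RBR ligases, gave -0.13 and 0.09 with 2. None of these passed the test. The other E2 genes without a call (Ube2e2, Ube2e3, Ube2g2, Ube2j1, Ube2j2, Ube2o, Ube2q1, Ube2r2 and Ube2s) lay between -0.30 (Ube2j1) and 0.17 (a dim probe set of Ube2e3). The 4 tested probe sets of Ube2f, Ube2m and Ube2z, counted apart from the E2 enzymes above, were likewise without a call (median log2 fold change 0.01). Ube2m (NEDD8) gave 1589.6 and 1527 in stressed pools, against 1698 and 1628 in control pools (-0.09 ± 0.05, adjusted p = 0.207). Ube2l6 (ISG15) was below the limit for testing, at 63.6 and 72.9 in stressed pools, against 76.8 and 70.5 in control pools. Ube2v1 was not analysed here. Ube2c, Ube2d2b, Ube2t and Ube2u had no tested probe set, with signals of 6.5 to 43.4, and the remaining untested probe sets belonged to genes that another probe set read. Psmc3ip and Psme3ip1, included by their letters alone, read 0.08 and 0.10 and did not pass. Leaving out a control array lowered the counts of enzyme probe sets that rose and that fell, as it did the counts over all tested probe sets.

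**Figure D4:**
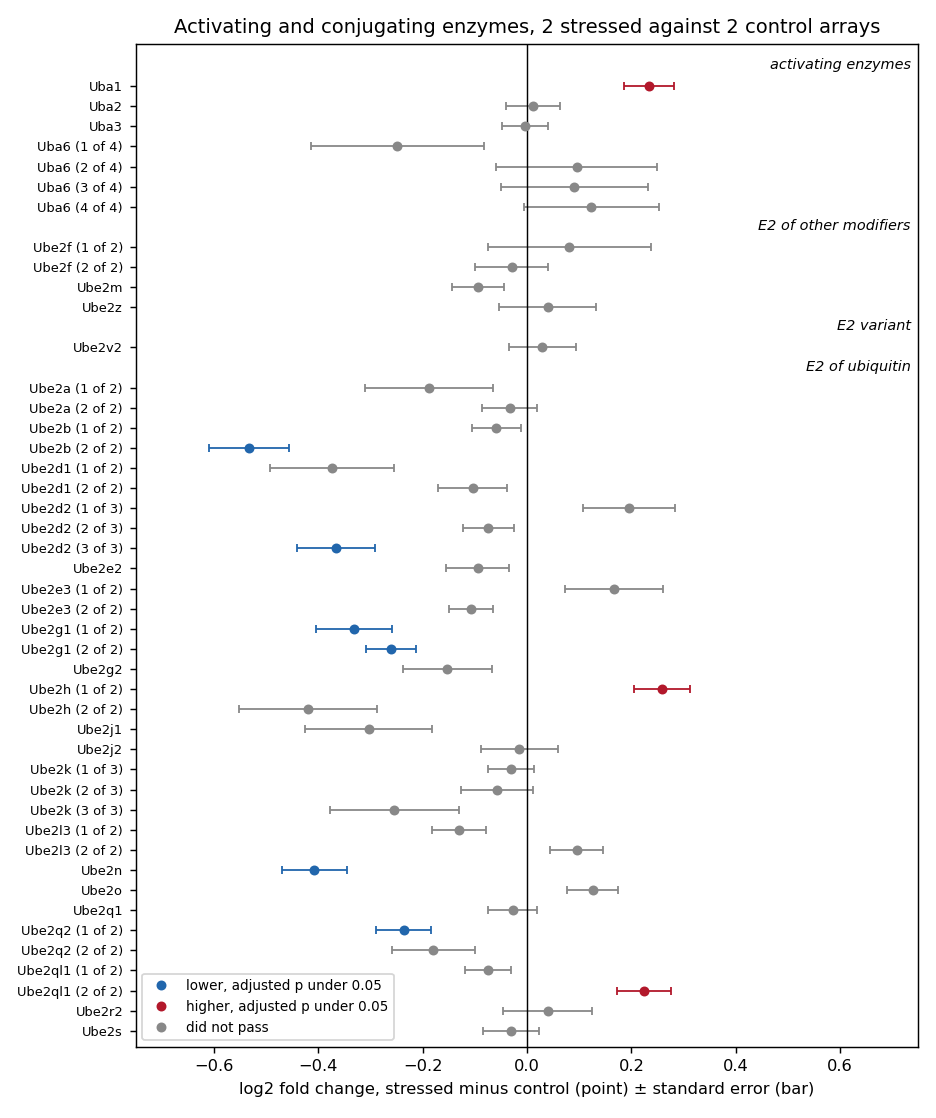
Log2 fold change (x axis, stressed minus control) with its standard error for each tested probe set of activating and conjugating enzymes (rows, grouped by role; numbers in brackets count the probe sets of 1 gene). The fallen probe sets of Ube2b (-0.53) and Ube2n (-0.41) lie farthest left among those past the test, and Uba1 (0.23), Ube2h (0.26) and Ube2ql1 (0.22) lie right of 0.

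Since several genes were read by more than 1 probe set, the change of each dimmer tested probe set was compared with that of the brightest of the same gene, as the log2 ratio of the 2 signals on each array. This comparison was added after the values of single probe sets were seen. Of 24 such pairs in 18 member genes, 4 differed between the groups (adjusted p under 0.05 by limma), beside 27.0% of 2363 pairs over all genes. The Psmd7 ratio was -1.47 and -1.43 on the stressed arrays, against -0.92 and -0.89 on the control arrays (difference -0.55 ± 0.08, adjusted p = 0.00186). For Ube2h it was -3.29 and -3.34 on stressed arrays, against -2.64 and -2.63 on control arrays (difference -0.68 ± 0.13, adjusted p = 0.00554). The Ube2b ratio was -1.20 and -0.94 in stressed pools, against -0.60 and -0.60 in control pools (difference -0.47 ± 0.10, adjusted p = 0.0108), and that of Ube2ql1 -1.07 and -1.10 in stressed pools, against -1.39 and -1.38 in control pools (difference 0.30 ± 0.07, adjusted p = 0.017). In each of these 4 genes 1 probe set passed the test and the other did not. Where the probes lie on the transcript was not analysed here.

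**Figure D5:**
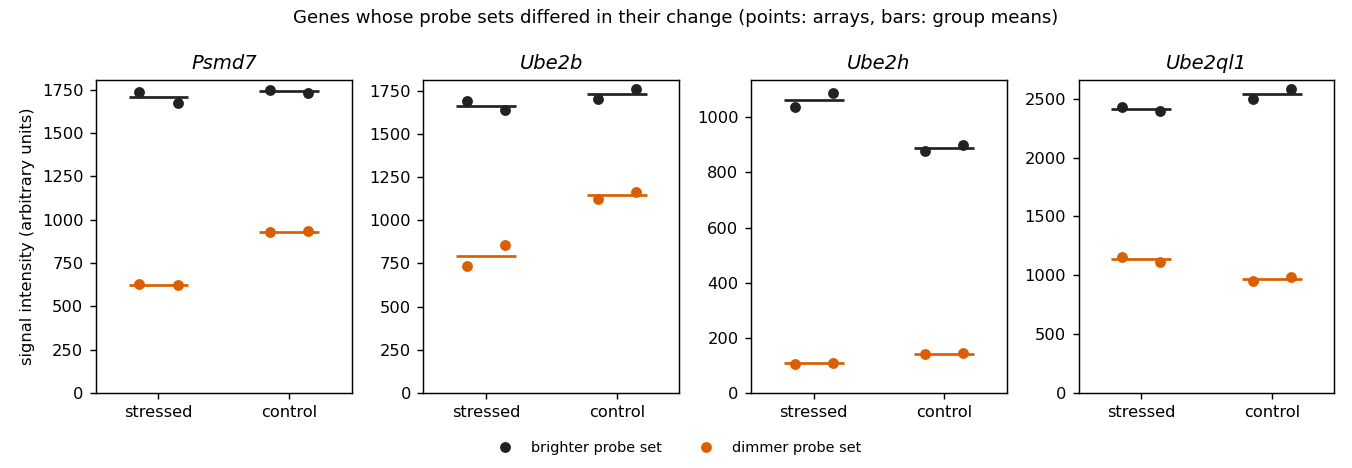
Signal intensity (y axis, arbitrary units, from 0) of the brighter and the dimmer probe set of Psmd7, Ube2b, Ube2h and Ube2ql1 on the 2 stressed and 2 control arrays; points are arrays and bars are group means. For Psmd7 and Ube2b the dimmer probe set is lower in stressed pools by the wider margin, and for Ube2h and Ube2ql1 the fold changes of the 2 probe sets have opposite signs.

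Of the 25 member probe sets past the threshold, 4 stayed past it in 12 of the 13 alternative settings computed for single members, the exception being the methods' t-test: Psmd1, Psmd7 (1379322_at), Ube2b (1386923_at) and Ube2n. None of the 25 met the methods' thresholds of 2-fold and an unadjusted p under 0.05. All 25 kept their direction in all 13 settings, but only quantile normalization and median centring could have reversed one. The other settings leave the fold change as it was, or could not reverse it because the groups did not overlap in any of the 25. No gene had probe sets that passed in opposite directions.

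The genes around the proteasome, from lists of pathway members, were read with the brightest tested probe set of each. Of 24 genes for assembly, regulation and substrate delivery, 4 fell and 1 rose, with a median log2 fold change of -0.06. Among all tested probe sets, 11.8% fell and 12% rose. The counts in this list and those below were not tested against these shares. The values that follow are a description of single genes. Uchl5, a deubiquitinase of the 19S cap, gave 793 and 760.1 in stressed pools, against 931 and 958 in control pools (-0.28 ± 0.06, adjusted p = 0.0102). Rad23b, a shuttle for ubiquitinated proteins, gave 2841 and 2883 in stressed pools, against 3212 and 3294 in control pools (-0.18 ± 0.04, adjusted p = 0.0193). Zfand5, an activator of the 26S proteasome, read -0.21 (adjusted p = 0.0195). Ecpas, which tethers core and cap, fell with its brightest probe set (-0.26, adjusted p = 0.00975), while others read 0.25 (adjusted p = 0.0882) and -0.12 (adjusted p = 0.649). Vcp, the segregase that extracts substrates, rose (0.18 ± 0.05, adjusted p = 0.027). The maturation factor Pomp and the deubiquitinase Usp14 did not pass (-0.01 and -0.04).

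NFE2L1 is the transcription factor known to drive proteasome genes when proteasome activity is short, and NFE2L2 is its relative in the oxidative stress response. Nfe2l1 gave 494 and 479 on the stressed arrays, against 633 and 652 on the control arrays, and fell by 0.40 ± 0.06 log2 units (adjusted p = 0.00428). Its dimmer probe set read 0.30 and did not pass (adjusted p = 0.215). Nfe2l2 gave 595 and 592 in stressed pools, against 522 and 467 in control pools, and rose (0.27 ± 0.07, adjusted p = 0.0367). Slc7a11, a cystine transporter and NFE2L2 target, rose as well (0.30 ± 0.05, adjusted p = 0.00606), and the other 9 of the 12 tested genes of this list did not pass (median over the 12, 0.10).

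Of 6 tested modifier genes, Sumo2 alone passed: it gave 3165 and 3166 in stressed pools, against 3711 and 3967 in control pools (-0.28 ± 0.05, adjusted p = 0.0062). The other E1, E2 and ligase partners had 3 genes that rose and 1 that fell of 15. Rbx1, the RING subunit of cullin ligases, gave 1333 and 1278 in stressed pools, against 1686 and 1728 in control pools (-0.39 ± 0.05, adjusted p = 0.00163), and its second probe set also fell (-0.71, adjusted p = 0.000144). Sae1, which pairs with Uba2 in the SUMO E1, rose (0.30 ± 0.06, adjusted p = 0.0121), as did the SUMO ligase Pias1 (0.52 ± 0.08, adjusted p = 0.00363). Atg7, the E1 of autophagy, rose with its brighter probe set (0.46 ± 0.10, adjusted p = 0.0149), while the dimmer read -0.14 (adjusted p = 0.493). Among 9 tested genes of antigen presentation and the interferon response, which in other settings rise with the inducible subunits, Stat2 rose (0.39 ± 0.11, adjusted p = 0.0435), Ifi27 fell (-0.86 ± 0.05, adjusted p = 3.27e-05) and 7 did not pass.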

How the data were processed

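Total hippocampal RNA was measured on 4 Affymetrix Rat Genome arrays, 2 of stressed and 2 of control pools. The deposited intensities were made by the authors with GCOS, which scaled each array to a target value of 300 (the mean of an array after trimming 2% at each end), with 1 linear value per probe set and no detection call. Median signals were 79.3 to 82.1, and 46.4% to 46.8% of probe sets reached 100. Log2 signals correlated with r = 0.993 between stressed arrays, 0.994 between control arrays and 0.972 to 0.974 between groups. The number of arrays limits the precision, and an exact permutation test of 2 against 2 arrays cannot go below p = 0.333.

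Signals were taken to log2 with zeros set to 0.1, without further normalization. The 57 control probe sets were left out. Stressed and control arrays were compared with limma 3.58.1 in R 4.3.3 (lmFit, eBayes with an intensity trend, 7.73 degrees of freedom), with Benjamini-Hochberg adjustment over all 14791 tested probe sets. The steps were tested on simulated data. The methods' t-test was an alternative only. Summaries were made with pandas 2.3.3 and numpy 2.4.6, and figures with matplotlib 3.10.9, under python 3.11.15.

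The platform annotation gave 1 symbol to 20826 probe sets, several to 436 and none to 9780. Symbols of all 117 members were unchanged in the RefSeq table. A further 14 probe sets named several genes, at least 1 of them fitting the symbol rule, and were left out. Named with values were every member past an adjusted p of 0.05, the other tested probe sets of those genes, and a fixed list of catalytic, inducible, activator, ATPase and receptor subunits and of E1 and E2 enzymes. The members and lists were chosen with earlier results of these data known. Alternatives covered normalization, the filter, an offset, the trend, the test, the pairing, single arrays, probe sets per gene and thresholds. Replicate numbers recur in both groups, but no source states that they pair the pools.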

Additional observations from a re-analysis of the deposited data

How the results depend on the processing

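Quantile normalization and median centring changed no direction of the 25 called members, and an offset of 50 and a minimum signal of 200 could not. Together they ended 1 call (Psma2, under quantile normalization). Calls of proteasome probe sets, 2 higher and 14 lower as reported, were 1 and 5 when dim probe sets were tested too, 1 and 1 without the intensity trend, 0 and 0 with the methods' t-test after adjustment, and 0 and 0 at the methods' thresholds of 2-fold and an unadjusted p under 0.05. Leaving out 1 array gave 1 to 2 higher and 3 to 6 lower. Calls of enzyme probe sets, 3 higher and 6 lower, were 0 higher without the intensity trend, 0 and 0 with the methods' t-test and 0 and 0 at the methods' thresholds. With 1 probe set per gene 3 fell, and leaving out 1 array gave 0 to 2 higher and 2 to 6 lower. Over all tested probe sets, 1771 higher and 1744 lower became 1000 and 1147 without the trend and 4 and 14 with the methods' t-test, and 650 to 1148 higher and 791 to 1342 lower when 1 array was left out. With the methods' t-test, fitted 1 probe set at a time, 1 proteasome probe set was higher and 10 lower, and 4 enzyme probe sets were higher and 9 lower, at an unadjusted p under 0.05. How many of all tested probe sets passed at this unadjusted threshold was not counted, so these counts have no share to stand beside. The cause of the changes was not tested.

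The proteasome median of -0.13 was -0.14 to -0.11 when 1 array was left out. The enzyme median of -0.06 was -0.0452 under quantile normalization, -0.0433 with no filter, -0.0455 with a minimum signal of 200, -0.0309 with 1 probe set per gene, -0.0334 with probe sets of several member genes included (an alternative chosen after seeing the data), and -0.0728 to -0.0516 when 1 array was left out. The 4 pairs of probe sets that differed, a result added after seeing the data, were 0 with the methods' t-test and 3 to 6 when 1 array was left out.

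The groups share replicate numbers 1 and 2, and no source says that these pair the pools. Deviations of same-numbered arrays from their group means correlated at -0.11. With 2 arrays per group, this value cannot tell whether the arrays were paired. With the replicate number as a block (replicate block), 5 proteasome and 6 enzyme probe sets fell, 3 enzyme probe sets rose and 3 pairs differed. Of the 25 calls, 16 were kept. In this balanced design a block leaves each fold change as it was, so the medians of -0.13 and -0.06 could not move. With the crossed pairing, chosen after seeing the data, 19 proteasome probe sets fell, 4 enzyme probe sets rose and 7 pairs differed.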
